A study of Mus musculus with 10 samples.

Results

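Genes of the proteasome were examined in the left ventricle (LV) of young mice with a constricted ascending aorta. Every gene whose symbol begins with Psma to Psmg followed by a number was taken, which gave 55 of the 55401 genes in the tables, and 49 of them reached a mean FPKM of 1, a level scaled for transcript length and library depth, and were tested among 11867 genes. The 10 libraries came from 5 mice with neonatal ascending aorta constriction (nAAC) and 5 sham-operated mice, 1 library per mouse. All mice were WT, were operated on as newborns and were sampled at 4 weeks of age. Each library was made from total RNA of LV tissue, so it holds every cell type of the ventricle, and the sex and litter of each mouse were not used.

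The proteasome degrades proteins that carry ubiquitin chains. Its 20S core is a barrel of alpha and beta rings, and the beta ring holds the proteolytic sites. The 19S cap, with a ring of ATPases and a lid of non-ATPase subunits, recognizes, unfolds and feeds in the substrate, while other activators open the core without it. Immune signals replace the catalytic beta subunits by immunoproteasome subunits, and the heart depends on the proteasome to remove damaged contractile proteins.

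Of the 49 tested genes, 4 were higher and 2 were lower in nAAC by limma at an adjusted p below 0.05. The immunoproteasome subunit Psmb10 rose most, and the cap subunits Psmd8, Psmd11 and Psmc4 rose by less. The activators Psme4 and Psme1 fell. Of all 11867 genes, 27.1% were called higher and 4.6% lower, so the share of proteasome genes called higher was under that of all genes and the share called lower was close to it. Differentially expressed genes (DEGs), which also had a log2 FC above 1, were 5.01% of all genes on the higher side, and Psmb10 was the 1 proteasome gene among them.

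The tables carry a general shift, since the median log2 FC of all genes was 0.22. The median of the 49 proteasome genes was 0.11, and 37 had a positive log2 FC. After median-ratio scaling, in which each library was divided by its typical ratio to the geometric mean over libraries, the median of all genes was at 0, that of the proteasome genes was -0.16, and 12 had a positive log2 FC. This scaling moves all genes down by about the same amount, and of the 11867 genes the positive ones went from 9089 to 5918. With that scaling 13.2% of all genes were higher and 12.1% lower, and among the proteasome genes Psmb10 and Psmd8 were higher and Psme1, Psme4, Psmc2 and Psme2b were lower.

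**Figure D1:**
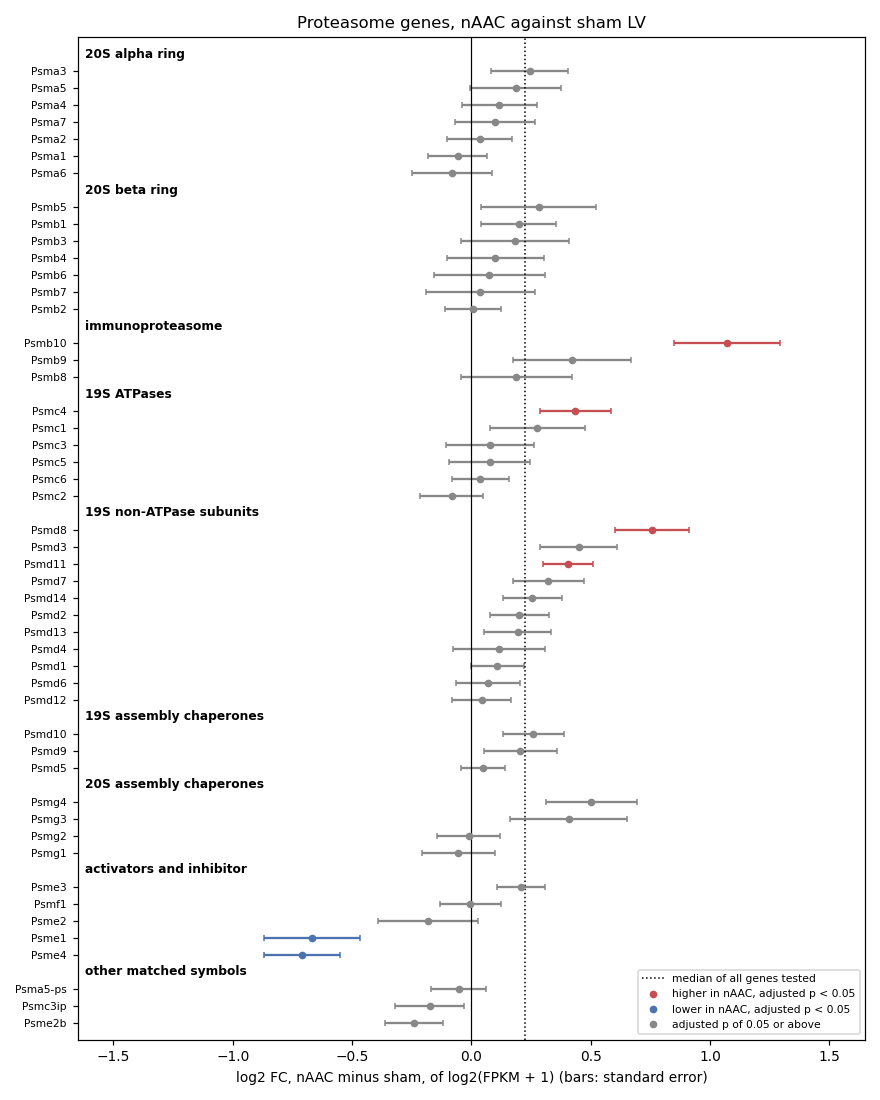
Each point is the log2 FC of 1 tested proteasome gene, nAAC minus sham, on log2(FPKM + 1), with its standard error as a bar, grouped by class. The dotted line is the median of all genes tested, 0.22; Psmb10 lies farthest to the right at 1.07 and Psme4 farthest to the left at -0.71.

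One sham library stood most apart in these genes. Sham replicate 4 was the highest of the 5 sham libraries in 40 of the 49 genes and the highest of all 10 libraries in 29. Its proteasome genes lay at a median of 0.55 on the log2 scale above the mean of the other sham libraries, against 0.07 for all genes. In this library the difference from the other sham libraries ran with transcript length, with a Spearman correlation of -0.66 across 11860 genes and -0.29 across the 49 proteasome genes, whose transcripts had a median length of 1819 bases against 3159 for all genes. Genes are not independent replicates, and what set this library apart was not tested. Without it, 14 proteasome genes were higher and 2 lower, against 33.1% and 5.23% of all genes, and the median log2 FC of the proteasome genes was 0.23 with 41 positive, beside 0.24 for all genes. Mitochondrial transcripts took 33.7 to 49.8% of TPM, a level that sums to the same total in every library, in sham and 32.8 to 39.9% in nAAC, and the estimated depth was 4.86 to 6.82 gigabases per library. Sham replicate 4 was at 33.7% and sham replicate 5 at 38.3%, against 46.5 to 49.8% in sham replicates 1 to 3. The proteasome genes of sham replicate 5 had a median of 0.07 from their mean over the 10 libraries, against -0.25 to -0.23 in sham replicates 1 to 3. For all genes these medians were 0.04 and -0.19 to -0.17.

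**Figure D2:**
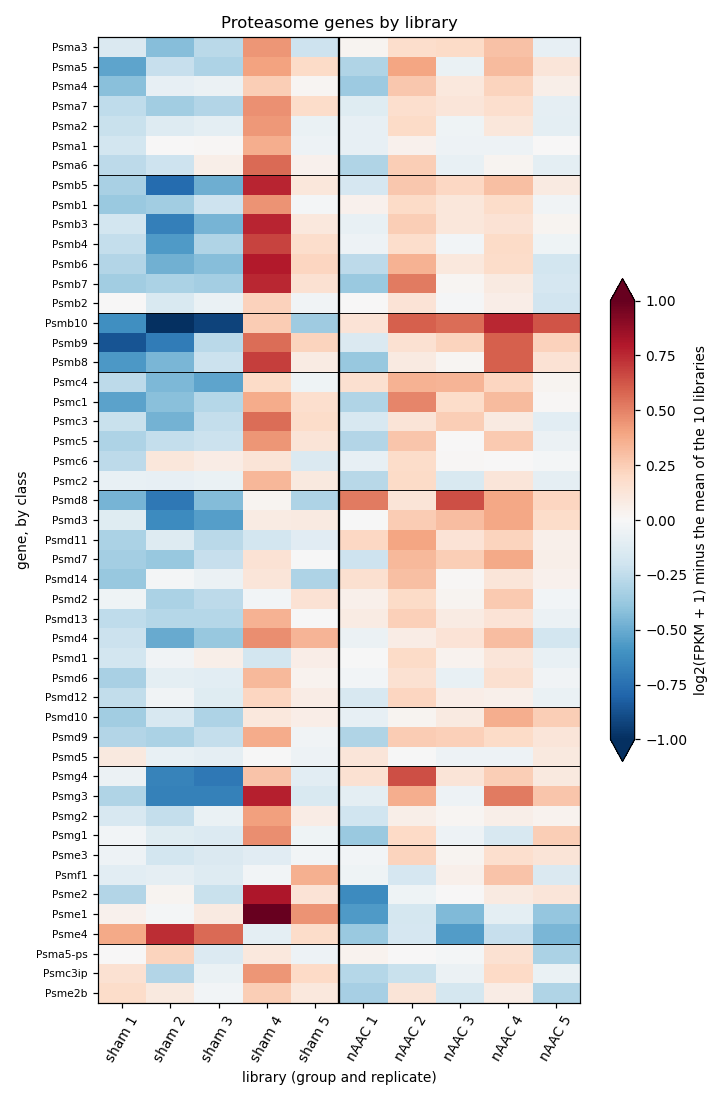
Rows are the 49 tested proteasome genes by class and columns are the 10 libraries, coloured by log2(FPKM + 1) minus the mean of the 10 libraries, with colours ending at 1 and -1. The column of sham replicate 4 is the highest of all 10 in 29 genes, and Psme4 is low in every nAAC library.

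For the 3 called genes with the largest log2 FC in either direction, the bases before the gene start are shown so that their upstream sequence can be read beside their values. They come from RefSeq promoters on GRCm38.p6, 5′ to 3′ on the strand of the gene, limited to the longest stretch outside all exons that GENCODE M21 gives to the gene. Capitals would mark letters of a searched motif, and these stretches hold none. Psmb10 is from chr8:105938445-105938642 and Psmd8 from chr7:29180702-29180923, both on the minus strand. Psme4 is from chr11:30771525-30771725 on the plus strand.
Psmb10: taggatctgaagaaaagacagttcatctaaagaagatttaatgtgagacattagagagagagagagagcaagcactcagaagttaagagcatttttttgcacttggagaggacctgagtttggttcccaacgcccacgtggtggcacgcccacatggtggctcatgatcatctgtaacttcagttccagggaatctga
Psmd8: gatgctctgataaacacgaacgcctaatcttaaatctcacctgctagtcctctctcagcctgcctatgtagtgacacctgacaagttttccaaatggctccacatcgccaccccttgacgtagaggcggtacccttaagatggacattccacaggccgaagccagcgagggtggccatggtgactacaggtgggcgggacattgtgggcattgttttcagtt
Psme4: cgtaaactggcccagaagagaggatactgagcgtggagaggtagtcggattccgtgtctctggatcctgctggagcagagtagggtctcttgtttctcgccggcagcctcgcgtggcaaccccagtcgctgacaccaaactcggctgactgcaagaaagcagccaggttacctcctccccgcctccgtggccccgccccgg

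The 250 bases before the RefSeq start were searched on both strands for 3 motifs chosen after the results were known, in the 44 promoters that matched 41 of the 49 tested genes. The core of the interferon-stimulated response element, a pair of GAAA with any 2 bases between them, was in 6.82% of them, held by Psmb3, Psmd4 and Psmd9, against 2.98% of all 32851 promoters. The core of the antioxidant response element, TGACNNNGC, was in 11.4% against 10.2%, and its holders included Psmb5 and Psmb6. The CCAAT box was in 31.8% against 33.8%. The full windows of Psmb10, Psmd8, Psme4 and Psme1 held none of the 3, which says only that these letters were not there.

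Within the 20S core, all 14 tested genes overlapped between the groups and none was called by limma, and none had an unadjusted p below 0.05. Of all 11867 genes, 27.1% were called higher and 4.6% lower. At an unadjusted p below 0.05 limma gave 4368 higher and 787 lower. Every nAAC library lay above every sham library in 18.9% of all genes and below in 3.46%. Mean FPKM of the core genes ran from 17.3 for Psma2 to 77.7 for Psmb7 in sham, and from 17.5 to 77.7 for the same genes in nAAC. The summed FPKM of the alpha ring, Psma8 included, was 336 ± 34.5 in nAAC and 326 ± 67.9 in sham (SD, n = 5), and that of the constitutive beta ring was 448 ± 55.0 and 428 ± 152. The log2 FC of the alpha genes lay between -0.08 and 0.24, with Psma3 at 0.24 and Psma6 at -0.08. Those of the beta genes lay between 0.01 for Psmb2 and 0.28 for Psmb5. After median-ratio scaling 1 of the 14 was positive, beside 5918 of all 11867 genes. With length and GC trends removed Psma7 was called lower, at -0.27 (limma adjusted p 0.0183). Without sham replicate 4, 3 of the 14, Psma3, Psmb1 and Psmb5, were called higher, with log2 FC of 0.38, 0.34 and 0.51. In that setting 33.1% of all genes were called higher.

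The catalytic subunits show this spread. Psmb5, the chymotrypsin-like subunit, had FPKM of 51.8, 70.5, 67.6, 72.2 and 62.1 in nAAC replicates 1 to 5 and 46.4, 33.7, 41.3, 99.8 and 63.2 in sham, with a log2 FC of 0.28 (SE 0.24). Psmb6, the caspase-like subunit, had 59.3, 90.6, 76.5, 81.0 and 62.6 in nAAC and 57.9, 50.8, 52.6, 124 and 82.8 in sham, with a log2 FC of 0.07 (SE 0.23). Psmb7, the trypsin-like subunit, had 57.9, 108, 76.3, 79.8 and 66.8 in nAAC and 58.9, 60.2, 59.0, 127 and 83.6 in sham, with a log2 FC of 0.04 (SE 0.23). In each of the 3 the groups overlapped, and sham replicate 4 was the highest library.

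Among the immunoproteasome subunits, Psmb10 was the 1 gene called. Psmb10, which takes the place of Psmb7, lies on mm10 chromosome 8 from 105935735 to 105938444, minus strand (ENSMUSG00000031897). Its FPKM was 24.6, 34.3, 33.5, 38.5 and 35.2 in nAAC replicates 1 to 5 and 14.3, 10.4, 11.3, 26.9 and 17.3 in sham. The groups overlapped at 1 point, since sham replicate 4 was above nAAC replicate 1. Means were 33.2 ± 5.15 and 16.0 ± 6.66 (SD, n = 5), for a log2 FC of 1.07 (SE 0.22, limma adjusted p 0.00274). Without sham replicate 4 its log2 FC was 1.27, and after median-ratio scaling it was 0.80 with a limma adjusted p of 0.00722, which is under the DEG threshold of 1.

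Psmb9 and Psmb8 did not pass with all 10 libraries. Psmb9, the partner of Psmb6, had FPKM of 2.59, 3.42, 3.65, 5.03 and 3.67 in nAAC and 1.18, 1.45, 2.30, 4.87 and 3.66 in sham, with a log2 FC of 0.42 (SE 0.25, limma adjusted p 0.207). Psmb8, the partner of Psmb5, had 3.36, 5.01, 4.74, 7.56 and 5.26 in nAAC and 2.80, 3.13, 3.88, 8.12 and 5.002 in sham, with a log2 FC of 0.19 (SE 0.23, limma adjusted p 0.552). Both had overlapping groups and lay far below Psmb10 in FPKM. Without sham replicate 4 Psmb9 was called higher, at 0.61 (limma adjusted p 0.0382). Psmb9 overlaps Tap1 on the other strand by 212 bases, and without the strand setting of the counting the reads within that overlap cannot be told apart. Psmb11, the thymus subunit, was below the filter, with a mean FPKM of 0.0018 in nAAC and 0 in sham.

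Each immunoproteasome subunit was also set against the constitutive subunit it replaces, within a library. The percentages below are plain FPKM ratios, which the scaling between libraries leaves as they are, while the tested ratio was the difference of log2(FPKM + 1) values, in which the added 1 weighs on low genes. The log2 of the plain ratio was tested as well, an alternative added after the data were seen. Psmb10 was 42.5, 31.8, 43.9, 48.2 and 52.7% of Psmb7 in nAAC replicates 1 to 5 and 24.2, 17.2, 19.2, 21.2 and 20.7% in sham. Every nAAC value was above every sham value, sham replicate 4 included. The tested difference was 1.03 (two-sided exact permutation p 0.0079, the smallest that 5 against 5 allows, adjusted p 0.0237 over the 3 ratios by Benjamini-Hochberg), and that of the plain log2 ratio was 1.09 (exact permutation p 0.0079). Psmb9 was 3.77 to 6.21% of Psmb6 in nAAC and 2.04 to 4.42% in sham. The tested difference was 0.35 (exact permutation p 0.0794, adjusted 0.119), and that of the plain log2 ratio was 0.54 (exact permutation p 0.0794). Psmb8 was 6.49 to 10.5% of Psmb5 in nAAC and 6.04 to 9.40% in sham. The tested difference was -0.09 (exact permutation p 0.524), and that of the plain log2 ratio was -0.05 (exact permutation p 0.786). The rise of Psmb10 against its partner was thus the 1 ratio that passed. A ratio within a library need not cancel trends with transcript length or GC content. With these trends removed the Psmb10 to Psmb7 difference was 0.74 (exact permutation p 0.0079). That of Psmb9 to Psmb6 was then 0.225 (exact permutation p 0.254).

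**Figure D3:**
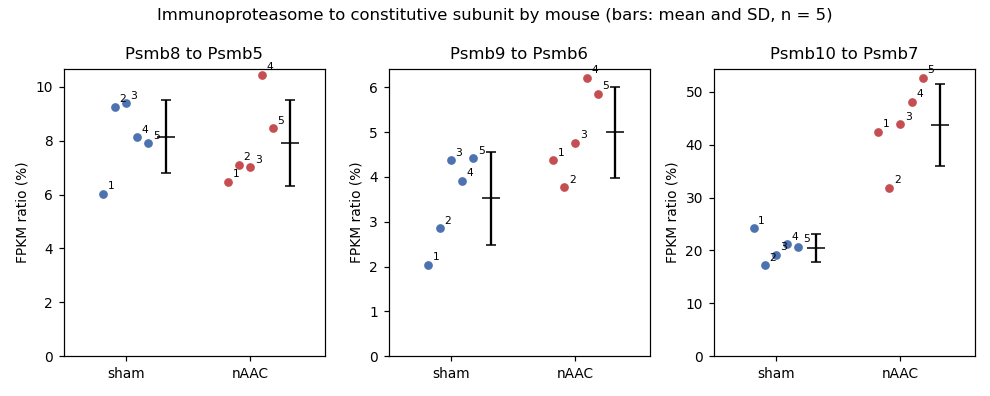
FPKM of each immunoproteasome subunit as a percentage of its constitutive partner, by group, with points numbered by replicate and bars for the mean and SD (n = 5). For Psmb10 to Psmb7 the nAAC mice lie between 31.8 and 52.7% and the sham mice between 17.2 and 24.2%, while the other pairs overlap.

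Immunoproteasome genes are abundant in leukocytes, and in bulk samples more cells of a type and more RNA per cell cannot be told apart. Of 10 leukocyte and macrophage markers, 7 were tested and none was called by limma (1 at an unadjusted p below 0.05), with log2 FC from 0.11 to 0.51, all positive. Of all 11867 genes, 27.1% were called higher and 4.6% lower, and 9089 were positive. After median-ratio scaling 5 of the 7 markers were positive, beside 5918 of all genes. The summed FPKM of the leukocyte and macrophage markers was 99.0 to 208 in nAAC and 79.9 to 191 in sham, with sham replicate 4 highest in its group. The T cell marker Cd3e was near 0, with a mean FPKM of 0.0598 in nAAC and 0.0326 in sham. The myeloid marker Itgam, below the filter on the mean of all 10 libraries, had a mean FPKM of 1.30 ± 0.691 in nAAC and 0.399 ± 0.0919 in sham (SD, n = 5) and was not tested. Of 20 genes of antigen processing and the interferon response, 19 were tested, and Tapbp, which helps load peptides onto class I molecules, was higher (log2 FC 0.55, limma adjusted p 0.00806) while the interferon-induced GTPase Igtp was lower (-0.57, limma adjusted p 0.0285). The Tapbp call was lost after median-ratio scaling (0.28, limma adjusted p 0.0602), where 0 genes of this list were higher and 3 lower, beside 13.2% and 12.1% of all genes. The Igtp call was lost without sham replicate 4 (-0.49, limma adjusted p 0.0501). The part of leukocyte RNA in the Psmb10 values was not tested.

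In the 19S cap, 3 of 17 genes were higher and none was lower by limma, against 27.1% of all genes higher. Without sham replicate 4, 7 of the 17 were higher, with Psmd3, Psmd7, Psmd13 and Psmd14 added, against 33.1% of all genes. The median log2 FC of the cap genes in all 10 libraries was 0.19, under the 0.22 of all genes, and 16 were positive. Psmd8, a lid subunit, lies on chromosome 7 from 29174188 to 29180701 (ENSMUSG00000030591). Its FPKM was 65.5, 49.9, 71.8, 59.8 and 52.9 in nAAC and 32.6, 27.3, 33.4, 46.5 and 36.6 in sham. The groups did not overlap, and its log2 FC was 0.76 (SE 0.16, limma adjusted p 0.0027). After median-ratio scaling its log2 FC was 0.48 (limma adjusted p 0.0305).

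Psmd11, a lid subunit that stabilizes the joint of cap and core, had FPKM of 21.0, 24.2, 20.1, 21.4 and 18.8 in nAAC and 14.4, 16.5, 14.9, 15.8 and 16.7 in sham. The groups did not overlap, and its log2 FC was 0.40 (SE 0.11, limma adjusted p 0.0115). Psmc4, an ATPase of the cap ring, had 33.5, 38.3, 38.1, 34.8 and 30.4 in nAAC and 24.7, 21.6, 20.5, 34.2 and 29.0 in sham, with overlapping groups and a log2 FC of 0.44 (SE 0.15, limma adjusted p 0.0388). Both calls were lost after median-ratio scaling, at log2 FC of 0.14 and 0.16 with limma adjusted p of 0.377 and 0.402. The Psmc4 call was also lost with the replicate number as a block (limma adjusted p 0.0714) and when nAAC replicate 1, 2, 3 or 4 or sham replicate 1, 2 or 3 was left out, at limma adjusted p of 0.0543 to 0.103. It was lost as well with length and GC trends removed (limma adjusted p 0.189), Xist as a covariate (0.218), upper-quartile scaling (0.297) or no filter (0.0666). Upper-quartile scaling also lost the Psmd11 call (limma adjusted p 0.335). Psmd3, a lid subunit, had 35.0, 42.0, 43.6, 46.1 and 40.0 in nAAC and 32.3, 22.4, 23.6, 37.3 and 37.4 in sham. It missed the threshold, with a log2 FC of 0.45 (SE 0.16, limma adjusted p 0.0506), and passed without nAAC replicate 1, sham replicate 4 or sham replicate 5 (limma adjusted p 0.0433, 0.0197 and 0.027). Every nAAC library lay above every sham library in 18.9% of all genes, and in 3 of the 49 proteasome genes, which were Psmd8, Psmd11 and the activator Psme3.

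The other cap genes did not pass with all 10 libraries. Among the ATPases, Psmc1 had a log2 FC of 0.28 and Psmc2 of -0.08, and after median-ratio scaling Psmc2 was called lower at -0.36 (limma adjusted p 0.0316). Among the non-ATPase subunits, Psmd7 had a log2 FC of 0.32 (limma adjusted p 0.115) and the deubiquitinase Psmd14 of 0.26 (limma adjusted p 0.13). Without sham replicate 4 they were at 0.40 and 0.32 (limma adjusted p 0.0403 and 0.0438). The summed FPKM of the non-ATPase subunits was 407 ± 28.6 in nAAC and 337 ± 49.4 in sham, and that of the ATPases was 268 ± 32.03 and 249 ± 53.3 (SD, n = 5). Summed cap over summed core FPKM was 0.66 in sham replicate 4 and between 0.81 and 0.90 in the other 9 libraries.

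None of the 7 assembly chaperones of core and cap passed limma's test of all 10 libraries, and Psmg4 alone had an unadjusted p below 0.05. Of all 11867 genes, 27.1% were called higher and 4.6% lower, and 4368 and 787 had an unadjusted limma p below 0.05. Psmg4, which pairs with Psmg3 in building the alpha ring, had 9.43, 13.7, 9.25, 10.1 and 9.03 FPKM in nAAC and 8.02, 4.92, 4.71, 10.5 and 7.75 in sham, with a log2 FC of 0.50 (SE 0.19, limma adjusted p 0.0611). Psmg3 had a log2 FC of 0.41 (SE 0.24, limma adjusted p 0.217). Without sham replicate 4 both were called higher, at 0.64 and 0.65, beside 33.1% of all genes. The cap chaperones Psmd5, Psmd9 and Psmd10 had log2 FC of 0.05, 0.21 and 0.26.

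Of the 5 activators and inhibitor, 2 were lower and none higher, beside 4.6% of all genes lower and 27.1% higher. Psme4, the activator PA200, lies on chromosome 11 from 30771726 to 30880361 (ENSMUSG00000040850). Its FPKM was 32.6, 37.7, 28.6, 36.0 and 30.7 in nAAC and 55.5, 71.4, 63.3, 39.7 and 48.4 in sham. The groups did not overlap and sham replicate 4 was nearest to nAAC, with means of 33.1 ± 3.75 and 55.7 ± 12.4 (SD, n = 5). Its log2 FC was -0.71 (SE 0.16, limma adjusted p 0.00476), and it was -0.98 after median-ratio scaling. With Xist, which marks female mice, as a covariate, the call was lost at -0.50 (limma adjusted p 0.0666).

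Psme1, the alpha subunit of the activator PA28, lies on chromosome 14 from 55578123 to 55581529 (ENSMUSG00000022216). Its FPKM was 33.7, 44.6, 37.0, 47.1 and 38.4 in nAAC and 52.2, 49.9, 53.9, 110 and 69.3 in sham. The groups did not overlap, and sham replicate 4 stood far above the rest. The log2 FC was -0.67 (SE 0.20, limma adjusted p 0.0237), and it was -0.48 without sham replicate 4 (limma adjusted p 0.0168). Leaving out nAAC replicate 1, 3 or 5 lost the call, with limma adjusted p up to 0.0532, as did the TPM column (-0.50, limma adjusted p 0.0706) and dropping the filter (limma adjusted p 0.0646). Every nAAC library lay below every sham library in 3.46% of all genes and in Psme4 and Psme1.

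**Figure D4:**
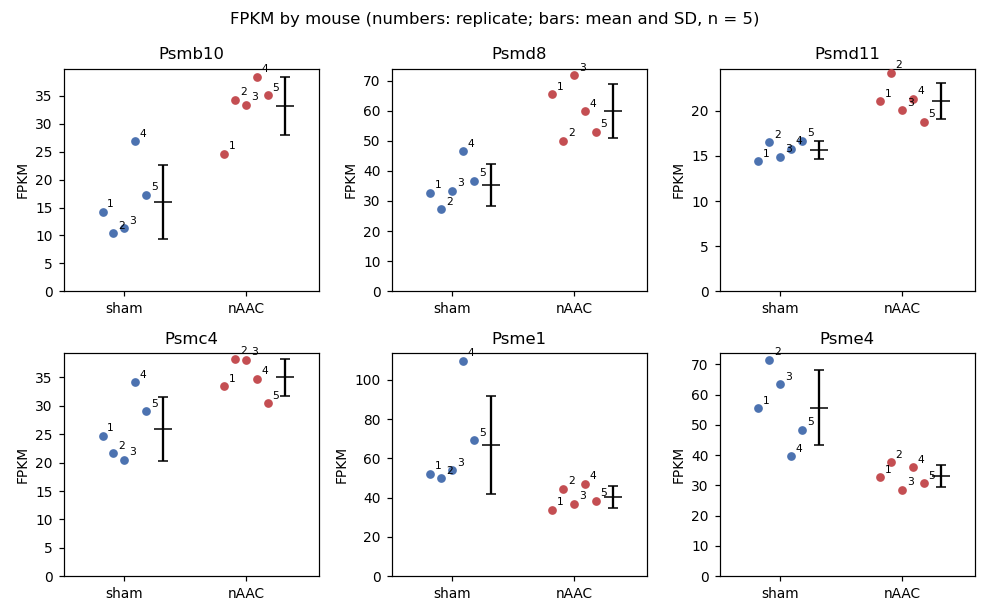
FPKM by mouse of the 6 proteasome genes called by limma, with points numbered by replicate and bars for the mean and SD (n = 5). The nAAC points of Psmd8 and Psmd11 all lie above and those of Psme1 and Psme4 all below the sham points, while Psmb10 and Psmc4 overlap at sham replicate 4.

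The partner of Psme1 in PA28, Psme2, had 10.3, 16.0, 16.6, 17.6 and 18.04 FPKM in nAAC and 13.3, 16.9, 14.0, 29.7 and 18.3 in sham, with a log2 FC of -0.18 (SE 0.21, limma adjusted p 0.521). With length and GC trends removed Psme2 was called lower, at -0.44 (limma adjusted p 0.018). With sham replicate 4 also left out it was at -0.38 (limma adjusted p 0.0356). The nuclear activator Psme3 had 15.5, 18.7, 16.2, 17.9 and 17.5 in nAAC and 15.3, 13.8, 14.3, 14.6 and 15.5 in sham, with a log2 FC of 0.21 (SE 0.10, limma adjusted p 0.131). The inhibitor PI31, Psmf1, had 3.75, 3.36, 4.08, 4.95 and 3.42 in nAAC and 3.54, 3.59, 3.48, 3.81 and 5.27 in sham, with a log2 FC near 0 (SE 0.13). Psme2 and Psmf1 overlapped between the groups, and in Psme3 the lowest nAAC value was just above the highest sham value.

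The 3 other tested symbols were not subunits in the strict sense, or were near copies whose reads could be shared with the parent gene. Psme2b, a near copy of Psme2, had 8.58, 12.2, 9.71, 11.7 and 8.84 FPKM in nAAC and 12.7, 12.0, 10.8, 13.3 and 12.0 in sham, with a log2 FC of -0.24 (SE 0.12, limma adjusted p 0.146). Psmc3ip, a meiotic recombination factor named after its binding of Psmc3, had 0.692, 0.775, 0.98, 1.37 and 0.979 in nAAC and 1.30, 0.69, 0.979, 1.80 and 1.37 in sham, with a log2 FC of -0.17 (SE 0.14). It overlaps Mlx, a gene with a mean FPKM of 6.91, by 385 bases on the other strand, where reads may be shared. With length and GC trends removed Psme2b and Psmc3ip were called lower, at -0.41 and -0.38 (limma adjusted p 0.0142 and 0.0137). Psma5-ps, a pseudogene of Psma5, had a log2 FC of -0.05. The 5 genes below the filter other than Psmb11 were the testis subunit Psma8, with a mean FPKM of 0.458 in nAAC and 0.217 in sham, and the pseudogenes Psmb5-ps, Psmb6-ps, Psmb6-ps2 and Psmb7-ps2, each with a mean of at most 0.0217 in both groups.

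Few other genes of the pathway were called, beside 27.1% of all genes higher and 4.6% lower. Of 16 genes for chaperones, receptors, regulators and deubiquitinases of the proteasome, 2 were higher and none lower. They were Nfe2l1, the transcription factor that raises proteasome genes when activity is short (log2 FC 0.55, limma adjusted p 0.0162), and Zfand2a, a stress-induced factor of the cap (0.40, limma adjusted p 0.0137). Both calls were lost after median-ratio scaling, at 0.28 and 0.17 with limma adjusted p of 0.122 and 0.344. Of 14 genes for ubiquitin, shuttles and the segregase Vcp, 2 shuttles were higher, Ubqln4 (0.54, limma adjusted p 0.00722) and Rad23b (0.44, limma adjusted p 0.0101), and these calls too were lost after median-ratio scaling, at 0.27 and 0.17 (limma adjusted p 0.0729 and 0.267). The medians of these lists, 0.22 and 0.31, stood beside 0.22 for all genes.

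Fibroblast markers moved with the groups. Of 8 fibroblast markers 6 were higher, and their summed FPKM was 561 to 978 in nAAC and 384 to 415 in sham, without overlap, and after median-ratio scaling 4 were higher. Of 10 cardiomyocyte markers 2 were higher and 3 lower, of 8 endothelial markers 2 were higher (1 after median-ratio scaling), beside 27.1% of all genes higher and 4.6% lower. None of 3 atrial markers was called by limma or had an unadjusted p below 0.05, with log2 FC of 0.88 to 1.32. Their summed FPKM was uneven, at 134 and 227 in nAAC replicates 2 and 3, 44.7 in sham replicate 1 and 2.03 to 28.3 in the other libraries. The part of the cell makeup in the proteasome values was not tested.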

How the data were processed

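RNA from LV tissue was extracted with Trizol and libraries were made with the NEBNext Ultra kit, per the labels. For every mouse the authors deposited a table of FPKM, TPM and mean coverage by gene, on mm10 per the processing notes. The column layout is that of StringTie; the aligner, the counting tool and the strand setting are not given in the sources used here. Rows that share a gene ID were summed. The values are not counts, so limma 3.58.1 (R 4.3.3) with an empirical Bayes trend was run on log2(FPKM + 1), keeping genes whose FPKM averaged 1 or more, with Benjamini-Hochberg adjustment over all 11867 genes. A fold change on this scale understates that of low genes. Ratios of log2(FPKM + 1) values were compared by exact permutation tests. The labels do not tie mice to litters, and p values measure the spread between these mice. Depth was estimated from the ratio of FPKM to coverage. Scripts were tested on simulated data: of 200 genes changed by 0.5, 1 and 1.5 on the log2 scale among 11867, 41, 168 and 191 were called.

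Genes given in every mouse were the catalytic and immunoproteasome subunits, the activators and inhibitor, and the 5 largest and 5 smallest log2 FC; for other classes, examples with the largest changes were named. The gene set and the lists were chosen with earlier results of these data known. Alternatives were other scalings, the TPM column, other pseudocounts and filters, a replicate block, Xist as a covariate, the removal of length and GC trends, and leaving out each mouse. The 2 alternatives that combine a correction with leaving out a library, both without sham replicate 4, as well as the log2 ratio with no pseudocount, the motif search and the choice of printed promoters were added after the data were seen. The correlations of same-numbered libraries' deviations lay between -0.32 and 0.19. They cannot tell whether the replicate numbers pair the mice, and the labels do not say.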

Additional observations from a re-analysis of the deposited data

Results flagged for a closer look

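The spread of single values was examined in 52 groups of 5 mice by the gap of the highest or lowest mouse to its neighbour, as a share of the range of the group. Chance flags about 1 in 20 groups, or 2.6 here, and 3 were flagged. Psme2 was lowest in nAAC replicate 1 (gap share 0.782), Psmf1 was highest in sham replicate 5 (0.791) and Psmg4 was highest in nAAC replicate 2 (0.723). None of the 3 genes passed the limma test with FPKM as deposited and all 10 libraries.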

How the results depend on the processing

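Psmb10 and Psmd8 kept the call higher under every alternative run, with log2 FC of 0.725 to 1.269 and 0.468 to 0.933. The count called higher, 4 of 49, was 10 with the TPM column, 2 with median-ratio or upper-quartile scaling and between 3 and 14 when 1 mouse was left out, 14 being without sham replicate 4. With FPKM as deposited, 27.1% of all genes were called higher and 4.6% lower. These shares were 13.2% and 12.1% with median-ratio scaling, and 33.1% and 5.23% without sham replicate 4. Shares of all genes in the other settings were not computed, so the counts there cannot be set against them. The count called lower, 2, was 1 with TPM or no filter (Psme1 lost) or with Xist as covariate (Psme4 lost), 4 with median-ratio scaling (with or without sham replicate 4) or upper-quartile scaling, 6 with length and GC trends removed (with or without sham replicate 4), and 1 to 2 when 1 mouse was left out. The genes added with trends removed were Psma7, Psmc3ip, Psme2 and Psme2b, with or without sham replicate 4. DEGs on the higher side, 1, were 0 with median-ratio scaling or trends removed (each with or without sham replicate 4), upper-quartile scaling or Xist, and 0 to 1 with 1 mouse left out, 0 without sham replicate 2 or 3. DEGs on the lower side, 0, were 1 with trends removed and with median-ratio scaling without sham replicate 4. The members' median log2 FC was -0.163 with median-ratio and -0.15 with upper-quartile scaling, -0.075 with length and GC trends removed (17 of 49 positive) and 0.278 with TPM. In the same order, the median of all genes was -0.001, 0.01, -0.019 and 0.389, each above that of the members. Whether the replicate numbers pair the mice is not known. With the number as a block 3 were higher (Psmc4 lost) and 2 lower. The Psmb10 to Psmb7 difference then stayed at 1.033 with an exact p of 0.0625, the smallest a paired design of 5 allows. The Psmb9 to Psmb6 difference was 0.512 with a pseudocount of 0.1 (exact p 0.0714) and 0.245 to 0.437 with 1 mouse left out. It passed unadjusted without nAAC replicate 2 or sham replicate 3 (exact p 0.0476 and 0.0397). It was 0.225 with length and GC trends removed (exact p 0.254), and its exact p was 0.1875 with the replicate block. With those trends removed the Psmb10 to Psmb7 difference was 0.741 (exact p 0.0079) and that of Psmb8 to Psmb5 was -0.049 (exact p 0.698). Some genes not called with FPKM as deposited and all 10 libraries also changed sign. With trends removed Psmb5 was at -0.045, Psmb6 at -0.155 (-0.06 without sham replicate 4), Psmb7 at -0.016, Psmb8 at -0.094 and Psme3 at -0.039 (-0.076 without sham replicate 4). With median-ratio scaling Psmb6 was at -0.202 (-0.009 without sham replicate 4), Psmb7 at -0.239 (-0.063), Psmb8 at -0.04 and Psme3 at -0.057 (-0.076). With upper-quartile scaling Psmb6 was at -0.188, Psmb7 at -0.225, Psmb8 at -0.027 and Psme3 at -0.044. With Xist Psmb6 was at -0.053 and Psmb8 at -0.023, and with TPM Psmf1 was at 0.142. With 1 mouse left out Psmb6 ranged from -0.035 to 0.283, Psmb7 from -0.087 to 0.23 and Psmf1 from -0.076 to 0.084. The cause of these changes was not tested. The files hold no counts, so counting error is unknown, and with 5 mice per group small changes can be missed.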
